A study of Homo sapiens with 6 samples.

Results

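The proteasome subunit genes were taken from the deposited gene expression table as the protein-coding genes whose symbols begin with PSMA, PSMB, PSMC, PSMD, PSME, PSMF or PSMG followed by a digit. The rule leaves out 2 immunoproteasome subunit genes and found 48 of the 38637 genes in the table. Of the 48 genes, 46 had a mean of at least 1 TPM and were tested among 13980 genes. PSMA8 and PSMB11, the subunits of the testis and thymus forms of the particle, were listed at 0 in all 6 libraries. PSMC3IP, a recombination factor, and PSME3IP1, a protein that binds PSME3, entered by their names and are not subunits. They are counted among the 46 genes and are given as a group of their own.

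The proteasome degrades proteins that carry ubiquitin. Its 20S core is a stack of alpha rings, which gate the entrance, and beta rings, in which PSMB5, PSMB6 and PSMB7 cut the protein chain. The 19S cap sits on the core, where PSMC ATPases unfold the substrate and PSMD subunits bind ubiquitin and remove it. PSME proteins form other caps that open the core without ubiquitin, PSMF1 is a core-binding regulator first described as an inhibitor, and PSMG proteins assemble the core. Cells with too little proteasome activity raise the mRNA of most subunits together through the transcription factor NFE2L1, which binds antioxidant response elements in their promoters.

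The libraries came from HCCLM3-SR, a sorafenib-resistant derivative of the human hepatocellular carcinoma (HCC) line HCCLM3 made by long exposure to rising doses of sorafenib, a multikinase inhibitor. Knockdown cells (n = 3) received siRNA against cDCBLD2, a circular RNA from the DCBLD2 gene, and control cells (n = 3) received control siRNA, in both cases for 3 days and under 5 µM sorafenib. No group without sorafenib and no parental line were part of these libraries, and nothing in the labels says whether the replicates came from separate cultures, so the p-values measure the spread between these libraries. The values are TPM, a read number per transcript length that sums to the same total in every library. Levels can be compared between genes only as far as the lengths used by the authors hold, and those are not given.

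From the ratios of the values between libraries, between 17492492 and 23064140 whole reads per library were recovered as lower bounds, and replicate 1 was the shallowest in both groups. For the 46 genes the reads ran from 319 for PSMC3IP to 7917 for PSMD2 in a library, which sets a counting error of between 5.6% and 1.12%. The mRNA of DCBLD2 averaged 38.5 TPM after knockdown and 56.9 TPM in control cells, with single libraries from 25.9 to 71.5 TPM. The libraries were made from poly(A) RNA, so these values are no measure of the circular RNA. In its resistant lines the paper saw no obvious consistent change of DCBLD2 mRNA or protein after cDCBLD2 knockdown. The epithelial keratins KRT8 (at least 2999 TPM) and KRT18 (at least 1800 TPM) and the hepatocyte factor HNF4A (22.9 to 31.3 TPM) were present, whereas the hepatocyte products ALB, APOA1, APOB, TTR and SERPINA1 did not exceed 4.26 TPM in any library. Summed over the 9 hepatocyte and liver cancer markers the level was 5840 to 7009 TPM after knockdown and 4830 to 5649 TPM in control cells, without overlap. Most of this sum came from the keratins, with KRT8 at means of 3927 and 3140 TPM and KRT18 at 2322 and 1941 TPM. The means of APOA1, TTR, SERPINA1, AFP and HNF4A were higher after knockdown as well. ALB (0.607 and 1.11 TPM) and APOB (1.64 and 3.44 TPM) were lower. The part of the difference in this sum in the results on proteasome genes was not tested. Summed over 4 endothelial markers the level was 4.54 to 5.19 TPM after knockdown and 3.75 to 5.79 TPM in control cells. Over 5 fibroblast markers it was 32.2 to 76.6 TPM and 30 to 43.8 TPM, and over 4 leukocyte markers, mostly CD68, it was 102 to 131 TPM and 93.5 to 115 TPM. CD3E was at 0 throughout, PTPRC did not exceed 0.411 TPM and VWF did not exceed 0.0672 TPM.

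The study placed cDCBLD2 in a pathway in which it binds miR-345-5p, a microRNA described there as acting through coding sequence of its target, so the proteasome transcripts were searched for the match to its seed. The mature microRNA (RefSeq, GRCh38.p14, chr14:100307876-100307897, plus strand) is shown with its seed, bases 2 to 8, in capitals, followed by the 3 coding-sequence matches found in tested proteasome transcripts, shown because they are of the kind of site the study describes. In these 30-base windows of GENCODE release 29 transcripts the capitals mark the letters GAGTCAG, the complement of the seed.
hsa-miR-345-5p: gCUGACUCcuaguccagggcuc
PSMB6: gcagccattgcaGAGTCAGgggtagagcgg
PSMD12: gtccaaaaggcgGAGTCAGttaaaacaagc
PSMD8: gagcagctccccGAGTCAGcctatatgcac
The PSMB6 match lies in exon 6 of 6 (GRCh38, chr17:4798345-4798351, plus strand), the PSMD12 match in exon 3 of 11 (chr17:67357312-67357318, minus strand) and the PSMD8 match in exon 4 of 7 (chr19:38379253-38379259, plus strand). Matches in the 3′ UTR were found in PSMC1, PSMD11, PSMF1 and PSMG3. In all, 7 of the 46 tested proteasome transcripts (15.2%) held a match, against 23.1% of 11800 coding transcripts tested. The proteasome transcripts were shorter, with a median of 1580 bases against 3045 bases. The median log2 fold change after knockdown was -0.14 for the proteasome genes with a match and -0.13 for those without. For all coding genes tested it was -0.11 with a match and -0.08 without.

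The antioxidant response element, searched as TGACNNNGC on both strands from 250 bases before to 50 bases after the RefSeq gene start, was present in 12 of the 40 promoters found for tested proteasome genes (30%) and in 15.2% of the 10508 promoters of tested genes. The CCAAT box, searched as CCAAT on both strands, was present in 19 of the 40 (47.5%), against 36.6%. Windows of 30 bases around the element (capitals, read along the gene) are given for 4 genes picked among those that hold it, PSME4 and PSMG2, with the lowest log2 fold change of the activators and of the chaperones, and PSME1 and PSMC4, with the highest of the activators and of the ATPases.
PSME4: cccggcggctGCAGCGTCAccagcagagcc
PSME1: atggcagggcTGACCCCGCctcctccatcc
PSMG2: cagtttcccgTGACCCCGCggccgctctgc
PSMC4: acagaggccgGCTTGGTCActatggaggag
The windows lie at chr2:53971008-53971037 (minus), chr14:24136098-24136127 (plus), chr18:12658689-12658718 (plus) and chr19:39971182-39971211 (plus) of GRCh38.p14, and in PSME4 and PSMC4 the element is on the opposite strand. The median log2 fold change was -0.21 over the 12 tested genes with an element and -0.15 over 28 without.

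Proteasome mRNAs were abundant in HCCLM3-SR cells. PSMB4, a beta-ring subunit, had the highest mean over the 6 libraries at 839 TPM, followed by the alpha-ring subunit PSMA7 at 530 TPM and the ubiquitin receptor PSMD4 at 526 TPM. Means ran from 51.3 to 530 TPM among the alpha subunits and from 58.6 to 839 TPM among the beta subunits. They ran from 19.2 to 171 TPM among the ATPases and from 27.6 to 526 TPM among the non-ATPase (PSMD) genes. The PSMD genes were grouped by name and are not all subunits of the cap, since PSMD10, for example, is a chaperone of cap assembly. Although the subunits of a ring enter the particle in equal numbers, their TPM values differed by far more than the spread between libraries. This holds for mRNA levels only as far as the lengths behind the TPM values do. Means of the PSMG assembly chaperones ran from 6.31 TPM for PSMG4 to 112 TPM for PSMG3, and those of PSMG1, PSMG2 and PSMG3 lay within the range of the ATPases. PSMG4 had 461 to 632 recovered reads in a library and PSMB10 had 416 to 660, at means of 6.31 and 65.5 TPM. Their GENCODE transcripts hold 838 and 1218 bases. PSMG4 was not alone in this. PSME3 had 2399 to 2945 reads at a mean of 92.7 TPM, and PSMB4 had 5495 to 7407 reads at 839 TPM. Their GENCODE transcripts hold 998 and 964 bases. The lengths the authors used are not given, so the levels of PSMG4 and of other such genes cannot be set against those of other genes.

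**Figure D1:**
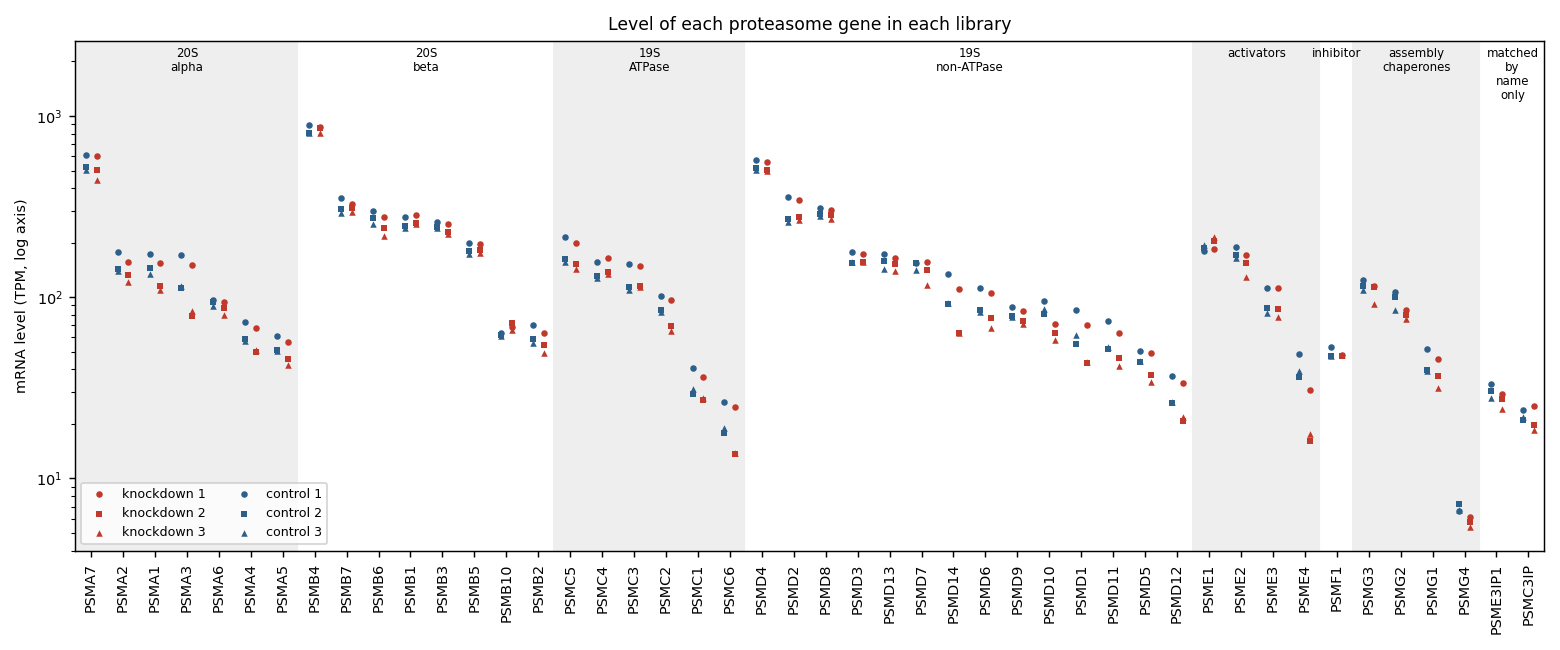
Level of each of the 46 tested genes in each library, in TPM on a log axis, grouped by sub-complex and ordered by mean level. Blue symbols are control and red symbols knockdown libraries, with circles, squares and triangles for replicates 1, 2 and 3. Circles stand above the other symbols of the same colour for most genes, and PSME4 has the widest gap between the colours.

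To ask whether cDCBLD2 knockdown changed proteasome mRNAs, the 46 genes were read out of the fit over all 13980 genes, limma's moderated test on log2(TPM + 1) with Benjamini-Hochberg adjustment. No proteasome gene passed an adjusted p of 0.05 in either direction, where 0.629% of all genes tested were called lower and 0.25% higher. None passed with a |log2 fold change| over 1 as well, where 18 of all genes did (0.129%). The paper's DESeq2 analysis reported more genes at thresholds of the same values. The absence of calls therefore does not show that the proteasome genes were unchanged. At an unadjusted p under 0.05 there were 3 of the 46 genes (6.52%), PSMD10, PSME4 and PSMG2, against 26.1% of all genes. Limma-voom on the recovered reads also called 0 of them. The log2 fold change was negative for 39 of the 46 genes (84.8%, against 62.4% of all genes). Their median was -0.14, beside -0.08 over all genes tested, and with upper-quartile scaling these medians were -0.04 and 0.01. Each knockdown library lay below each control library for PSMD10, PSME4, PSMG2 and PSMG4, which is 8.7% of the genes against 22.3% of all genes, and above for PSMB10 alone, 2.17% against 9.58%. The other 41 genes had overlapping groups. In bulk RNA, fewer cells that express a gene and less of its RNA per cell cannot be told apart.

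Same-numbered libraries deviated in common from their group means, and a fit with the replicate number as a block called 15 of the 46 genes lower (32.6%, against 25.0% of all genes) and 0 higher (against 9.94%), with none past the fold threshold (1.21% of all genes). They were PSMA1, PSMA2, PSMA3 and PSMA4 of the alpha ring, PSMB6 of the beta ring, the ATPases PSMC2 and PSMC6, the cap subunits or cap-binding proteins PSMD1, PSMD10, PSMD11, PSMD12 and PSMD14, the activators PSME2 and PSME4 and the chaperone PSMG2. Without knockdown replicate 1, the fit without the block called 7 genes lower (15.2%, against 19.8% of all genes), PSMA1, PSMA3, PSMC2, PSMD5, PSMD10, PSMD14 and PSME4, and 0 higher (against 4.64%). Of these PSME4 alone also passed the fold threshold, as did 3.24% of all genes. In the blocked limma-voom fit of recovered reads, 6 genes were lower (13%, against 20.5% of all genes), PSMA1, PSMA3, PSMD1, PSMD10, PSMD14 and PSME4, and 3 were higher (6.52%, against 17.5%), PSMB10, PSMC4 and PSME1, with none past the fold threshold (2.34% of all genes). Within pairs of equal number, 32 genes were lower after knockdown in all 3 pairs (69.6%, against 43.7% of all genes) and 4 were higher in all 3 (8.7%, against 22%).

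PSME4 encodes PA200, a large nuclear cap of the core linked to histone degradation (GRCh38, chr2:53864067-53970840, minus strand). Knockdown replicates 1, 2 and 3 held 30.8, 16.0 and 17.6 TPM of its mRNA, and the matching control replicates held 48.3, 36.2 and 39.1 TPM. The groups did not overlap, and the highest knockdown library was replicate 1. Means were 21.5 ± 8.1 TPM (SD, n = 3) and 41.2 ± 6.31 TPM (SD, n = 3), a change of -47.8% (two-sided exact permutation p = 0.1, the lowest value this number of libraries allows). The log2 fold change was -0.95 (SE 0.25, limma adjusted p = 0.0896, or 0.00586 in the blocked fit), at rank 161 from the lowest of all genes tested. It lay between -1.23 and -0.78 with each library left out in turn, and only without knockdown replicate 1 did it pass both thresholds (-1.23, limma adjusted p = 0.0125). Pairs 1, 2 and 3 differed by -0.63, -1.13 and -1.11.

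The other activators did not share this size. PSME1 and PSME2 are the partners of the PA28 ring, which serves antigen processing, and lie 4395 bases apart on chromosome 14 on opposite strands. PSME1 was at 185, 205 and 214 TPM after knockdown and at 180, 187 and 195 TPM in control cells, with overlapping groups and a log2 fold change of 0.1 (limma adjusted p = 0.43). PSME2 was at 170, 154 and 129 TPM after knockdown and at 190, 172 and 165 TPM in control cells, with a log2 fold change of -0.22 (limma adjusted p = 0.266, or 0.0279 in the blocked fit and 0.143 in the blocked limma-voom fit). The neighbours thus had log2 fold changes of opposite sign. The ratios of partner genes given here and for PSMB10 were chosen after the values had been seen. The ratio of PSME1 to PSME2 was 1.08, 1.34 and 1.65 after knockdown and 0.945, 1.09 and 1.18 in control cells. These ranges overlapped, with p = 0.3 in a two-sided exact permutation test. PSME3, the nuclear PA28 subunit, had a log2 fold change of -0.03. PSMF1 was at 48.2, 47.4 and 48.0 TPM after knockdown and 52.8, 47.1 and 47.2 TPM in control cells, a log2 fold change of -0.03 (limma adjusted p = 0.808).

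In the 20S core, all 7 tested alpha genes had a negative log2 fold change (62.4% of all genes), with a median of -0.17. With the replicate block 4 of them were called lower (25.0% of all genes). With an offset that removes the trend of each library with GC content, the ring's median turned to 0.14. With the block as well 0 were lower and 2 higher (12.7% and 11.7% of all genes). The median GC content of the ring's transcripts was 42.1%. After the offset, Spearman's rho between log2 fold change and GC content was -0.49 over the 46 genes, so the offset exceeded their own trend. The 8 tested beta genes had a median of -0.01, with 5 negative and 3 positive values, and 1 was called with the block. The difference between the rings was not tested. PSMA3, which had the lowest log2 fold change of the alpha genes, was at 150, 78.4 and 83.6 TPM after knockdown and at 172, 113 and 116 TPM in control cells. Knockdown replicate 1 lay above control replicates 2 and 3, so the groups overlapped. Its log2 fold change was -0.39 (SE 0.28, limma adjusted p = 0.407, or 0.0139 in the blocked fit), and with the GC-content offset it was -0.03 (limma adjusted p = 0.579 with the block). PSMA7 was at 601, 505 and 446 TPM after knockdown and at 607, 521 and 502 TPM in control cells, a log2 fold change of -0.08 (limma adjusted p = 0.739), which turned to 0.026 with upper-quartile scaling.

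Among the catalytic subunits, PSMB5, the chymotrypsin-like site and target of bortezomib, was at 196, 181 and 175 TPM after knockdown and at 199, 180 and 174 TPM in control cells. Means were 184 ± 11.1 TPM and 184 ± 13 TPM (SD, n = 3 each). PSMB7, the trypsin-like site, was at 328, 312 and 296 TPM after knockdown and at 352, 307 and 293 TPM in control cells, a log2 fold change of -0.02 (limma adjusted p = 0.898). For both genes the difference between groups was smaller than the spread between replicates, and both signs changed with the scaling. PSMB6, the caspase-like site and a gene with a coding match to the miR-345-5p seed, was at 276, 242 and 217 TPM after knockdown and at 300, 275 and 255 TPM in control cells. Its groups overlapped, and its log2 fold change was -0.18 (limma adjusted p = 0.339, or 0.0256 in the blocked fit and 0.291 in the blocked limma-voom fit).

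PSMB10, the immunoproteasome subunit that takes the place of PSMB7, lies on chromosome 16 from 67934502 to 67937087 on the minus strand. It was at 68.9, 71.7 and 66.2 TPM after knockdown and at 63.1, 62.2 and 61.1 TPM in control cells. Every knockdown library lay above every control library, by at least 3.06 TPM. Means were 68.9 ± 2.75 TPM and 62.1 ± 1.02 TPM (SD, n = 3 each), a change of 10.9% (two-sided exact permutation test, p = 0.1). The log2 fold change was 0.15 (SE 0.063, limma adjusted p = 0.201, or 0.0577 in the blocked fit), and the gene did not pass the threshold in either fit. It did pass in the blocked limma-voom fit, at 0.25 (adjusted p = 0.0307). With the GC-content offset it was at 0.043 (limma adjusted p = 0.534 with the block). The ratio of PSMB10 to PSMB7 was 0.21, 0.23 and 0.224 after knockdown and 0.18, 0.203 and 0.209 in control cells, without overlap (p = 0.1 in the same exact test). With the GC-content offset PSMB7 was at 0.058, so the offset values did not set PSMB10 above PSMB7.

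Of the genes grouped by name with the 19S cap, 13 of the 14 PSMD genes and 4 of the 6 ATPase genes had a negative log2 fold change. The share of all genes was 62.4%. The medians of the PSMD and ATPase genes were -0.15 and -0.12. With the GC-content offset the median of the PSMD genes was -0.06 and that of the ATPases was 0. PSMD14, the deubiquitinase that strips ubiquitin from the substrate, was at 111, 63.2 and 63.3 TPM after knockdown and at 135, 92.3 and 92.4 TPM in control cells. Replicates 2 and 3 were nearly equal within each group and replicate 1 was higher in both. Its log2 fold change was -0.45 (SE 0.26, limma adjusted p = 0.311, or 0.0083 in the blocked fit), it was -0.23 with the GC-content offset, and pairs 1, 2 and 3 differed by -0.28, -0.54 and -0.54. PSMD10, known as gankyrin, is a chaperone of cap assembly and an oncoprotein first found in liver cancer. It lies on chromosome X from 108084207 to 108091618 on the minus strand, and was at 70.7, 63.3 and 58.1 TPM after knockdown and at 95.4, 80.6 and 85.6 TPM in control cells. The groups stood apart by 9.94 TPM. Means were 64.1 ± 6.33 TPM and 87.2 ± 7.5 TPM (SD, n = 3 each), a change of -26.6%, and the log2 fold change was -0.44 (SE 0.1). Its limma adjusted p of 0.0744 was the smallest of the 46 genes, and it was 0.0066 in the blocked fit. At the other end, the scaffold subunit PSMD2 was at 345, 278 and 267 TPM after knockdown and at 355, 270 and 260 TPM in control cells, a log2 fold change of 0.01 (limma adjusted p = 0.965).

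**Figure D2:**
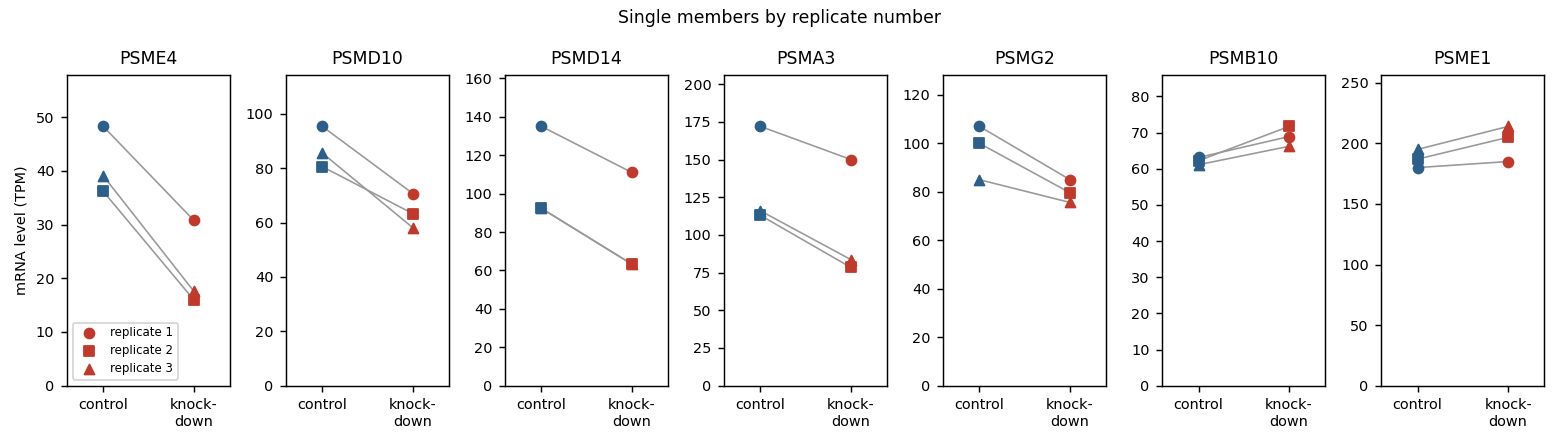
Level in TPM of 7 genes in control (blue) and knockdown (red) libraries, with a line joining libraries of the same replicate number and each vertical axis starting at 0. PSME4, PSMD10, PSMD14, PSMA3 and PSMG2 run down in all 3 pairs, and PSMB10 and PSME1 run up in all 3 pairs. For PSMD14 and PSMA3 replicate 1 lies well above replicates 2 and 3 in both groups.

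Of the ATPases, PSMC6 was at 24.7, 13.7 and 13.8 TPM after knockdown and at 26.3, 17.9 and 19.1 TPM in control cells, a log2 fold change of -0.3 (limma adjusted p = 0.491, or 0.0481 in the blocked fit). That call was lost in the blocked limma-voom fit (adjusted p = 0.0906), and the GC-content offset turned the value to 0.15 (limma adjusted p = 0.0758 with the block). PSMC4 was at 165, 137 and 134 TPM after knockdown and at 157, 131 and 128 TPM in control cells, a log2 fold change of 0.07 (limma adjusted p = 0.738). Both sets of values overlapped between groups, and in both genes the distance of replicate 1 from the other replicates exceeded the distance between the groups. The proteins entered by name only, PSME3IP1 and PSMC3IP, had log2 fold changes of -0.17 and -0.08. PSME3IP1 was at 29.1, 27.4 and 24.2 TPM after knockdown and at 33.2, 30.5 and 27.9 TPM in control cells (limma adjusted p = 0.327).

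All 4 PSMG assembly chaperones had a negative log2 fold change (62.4% of all genes), with a median of -0.21. PSMG2, which pairs with PSMG1 to build the alpha ring, was at 85.0, 79.6 and 75.6 TPM after knockdown and at 107, 100 and 85.0 TPM in control cells. The groups were apart by 0.0106 TPM only, between knockdown replicate 1 and control replicate 3. Its log2 fold change was -0.27 (SE 0.1, limma adjusted p = 0.156, or 0.0147 in the blocked fit and 0.0878 in the blocked limma-voom fit). PSMG4, the partner of PSMG3, was at 6.1, 5.78 and 5.4 TPM after knockdown and at 6.61, 7.23 and 6.73 TPM in control cells. Its groups did not overlap, and its log2 fold change was -0.22 (limma adjusted p = 0.232, or 0.116 in the blocked fit). PSMG3 was at 115, 114 and 91.5 TPM after knockdown and at 124, 115 and 110 TPM in control cells, with overlapping groups and a log2 fold change of -0.13 (limma adjusted p = 0.461).

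Summed over all 48 genes, proteasome mRNA came to 7430, 6465 and 6108 TPM after knockdown (replicates 1, 2 and 3) and to 7810, 6746 and 6570 TPM in control cells. Knockdown libraries were lower within each pair, while knockdown replicate 1 exceeded control replicates 2 and 3. The change in the mean was -5.32%, from 7042 ± 671 TPM to 6667 ± 684 TPM (SD, n = 3 each). By sub-complex it was -9.77% for the alpha ring, -1.14% for the beta ring, -4.11% for the ATPases, -6.35% for the non-ATPase genes, -6.39% for the activators and -12.7% for the assembly chaperones. For the rings, the ATPases and the non-ATPase genes the difference between the means was smaller than the SD of either group, and for the activators and the assembly chaperones it was larger than both. Within pairs 1, 2 and 3 the log2 ratio was -0.09, -0.15 and -0.22 for the alpha ring, -0.05, -0.06 and -0.08 for the ATPases and -0.08, -0.09 and -0.12 for the non-ATPase genes, all of 1 sign, and -0.04, 0.02 and -0.02 for the beta ring. With upper-quartile scaling, only the sums of the alpha ring and of the assembly chaperones stayed below control.

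**Figure D3:**
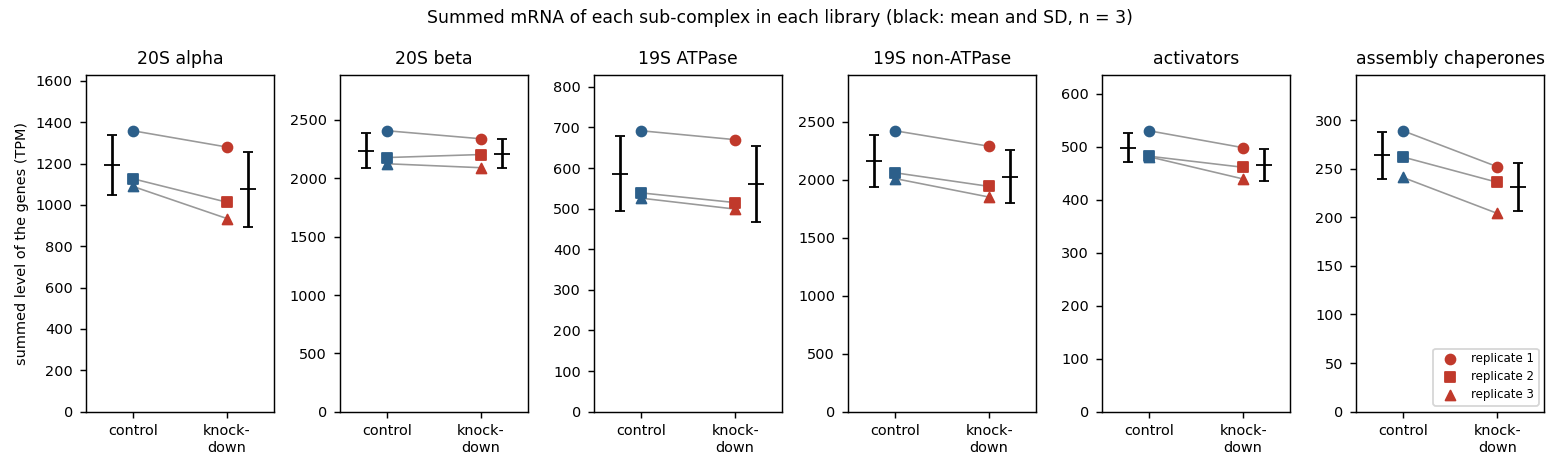
Summed level in TPM of the genes of 6 sub-complexes in each library, with lines joining replicate numbers, axes starting at 0, and the mean and SD of each group (n = 3) in black. Replicate 1 is highest in every panel in both groups, and the lines slope down by less than the distance between replicate 1 and replicates 2 and 3 in the alpha, ATPase and non-ATPase panels.

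In most proteasome genes replicate 1 differed from replicates 2 and 3 by more than the knockdown group differed from control. The contrast of replicate 1 was picked because that replicate had been seen to stand apart. Of the 46 genes, 43 had their highest value in replicate 1 within both groups (93.5%), against 38.9% of all genes tested, and 1 had its lowest value there in both groups. The mean of replicate 1 exceeded that of replicates 2 and 3 by a median of 0.27 on the log2 scale over the proteasome genes and by 0.06 over all genes. In 41 of the 46 genes this difference was larger in size than the log2 fold change after knockdown. The shares of all genes were not computed for this count or for that of the lowest values. Neither count is therefore shown to be particular to proteasome genes. The labels do not say what the replicate number stands for, and the part of culture, extraction and library day in this difference was not tested.

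GC content moved with the change after knockdown. Over the 46 genes the log2 fold change had a Spearman's rho of 0.61 with the GC content of the transcript, and over 13147 genes one of 0.64. These are descriptions across genes that share the same 6 libraries. The median log2 fold change was -0.2 in the 23 genes of lower GC content, up to a median of 49.2%, and -0.05 in the other 23 genes. Of the 15 genes called lower with the block, 12 were in the lower group. Once the GC-content trend of every library had been taken out, the fit without the block again called 0 proteasome genes. With the block it called 5 lower (10.9%, against 12.7% of all genes), PSMB6, PSMD14, PSME2, PSME4 and PSMG2, and 5 higher (10.9%, against 11.7%), PSMA5, PSMA6, PSMB1, PSMC2 and PSMD12. The 5 lower genes were all among the 15, whereas PSMC2 and PSMD12 changed direction, and none passed the fold threshold (0.662% of all genes). PSME4 remained the lowest at -0.61 (limma adjusted p = 0.0913, or 0.00705 in the blocked fit), and PSMD10 was at -0.1 (limma adjusted p = 0.511, or 0.296 in the blocked fit). After the offset rho was -0.49 over the 46 genes, so the trend of all genes was steeper than that of the proteasome genes. A difference in GC content between library preparations and a change in AT-rich mRNAs cannot be told apart in this design.

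The genes did not form a genomic cluster. The 48 genes were spread over 17 chromosomes, with 8 each on chromosomes 14 and 17, and the close neighbours were PSME1 with PSME2 and PSMB5 with PSMB11 (6937 bases apart).

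Other genes of the ubiquitin-proteasome pathway were read from the same fit, as a list of 24 genes of bound factors, assembly factors, ubiquitin shuttles, NFE2L1 with its processing enzymes, and ubiquitin. None passed an adjusted p of 0.05, 6 had an unadjusted p under 0.05 (26.1% of all genes), and the median log2 fold change was -0.15. With the replicate block 13 were lower and 0 higher (25.0% and 9.94% of all genes), and with the GC-content offset as well 4 were lower and 3 higher (12.7% and 11.7% of all genes). NFE2L1, the regulator of proteasome genes, was at 236, 276 and 290 TPM after knockdown and at 219, 261 and 267 TPM in control cells. Its groups overlapped, and its log2 fold change was 0.1 (limma adjusted p = 0.584, or 0.0779 in the blocked fit). ECPAS, which tethers and remodels proteasomes, and the ubiquitin shuttle UBQLN1 were named after their values had been seen. ECPAS was at 56.8, 46.8 and 47.4 TPM after knockdown and at 81.8, 71.6 and 75 TPM in control cells, a log2 fold change of -0.59 (limma adjusted p = 0.0544, or 0.00436 in the blocked fit) that was -0.34 with the GC-content offset. UBQLN1 was at 101, 79.5 and 82.3 TPM after knockdown and at 139, 117 and 122 TPM in control cells, a log2 fold change of -0.53 (limma adjusted p = 0.0687, or 0.00442 in the blocked fit) that was -0.27 with the offset. In both genes the groups did not overlap.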

How the data were processed

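Poly(A) RNA of 3 knockdown and 3 control libraries was measured as TPM per gene. The deposited TPM values were made by the authors, whose processing notes name fastp 0.20.1, HISAT2 2.1.0, StringTie 2.0 and the build hg38. The annotation and strand setting are not given in the sources used here. The study's methods name DESeq2 for the comparison, and since the values are TPM and not counts, moderated tests with an intensity trend were made in limma 3.58.1 under R 4.3.3 on log2(TPM + 1). Genes averaging 1 TPM or more entered, with Benjamini-Hochberg adjustment at 0.05 and a |log2 fold change| threshold of 1. A fold change on this scale understates that of low genes. Fits were tested on simulated data.

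Whole reads were recovered from TPM ratios between libraries for 99.86% of the 17285 genes above 0 in all libraries (relative tolerance 5e-08), and for 0.96% after random shifts of those factors. The recovered totals are lower bounds, and counting errors cover counting only.

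The proteasome genes, the lists of other pathway genes and markers, and the tests were chosen with earlier results of these data known. Per-library values are given for PSMB5, PSMB6 and PSMB7, PSMF1, the tested genes with the highest and the lowest log2 fold change among the PSMA, PSMB, PSMC, PSMD, PSME and PSMG genes, and the 8 genes with the smallest adjusted p, which makes 19 genes. Of the other pathway genes, NFE2L1 and those past an adjusted p of 0.05 were to be named.

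Same-numbered libraries deviated together from their group means (correlations of 0.56, 0.343 and 0.362 for numbers 1, 2 and 3), and the numbers were therefore taken to pair the libraries. Across numbers 2 and 3 the correlations were 0.247 and 0.215, so that replicate 1 stood apart and numbers 2 and 3 were set apart by little. What a number marks is not stated.

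GC content and length came from GENCODE release 29 on GRCh38, matched by symbol for 25569 genes and by newer symbol for 1619, with 11449 not matched. Of the genes tested, 94.0% had a value, as had all 48 proteasome genes. The GC and length offsets removed a loess trend (span 0.5) from each library. Promoters and the microRNA came from RefSeq (GRCh38.p14). Alternatives were upper-quartile scaling, other filters and pseudocount, the block, the offsets, limma-voom on recovered reads and leaving out each library. For single genes and ratios, exact permutation tests (two-sided) were used.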

Additional observations from a re-analysis of the deposited data

How the results depend on the processing

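With the replicate block, 15 proteasome genes were lower, with the GC-content offset and the block 5 were lower and 5 higher, and with limma-voom on recovered reads and the block 6 were lower and 3 higher, against 0 in each direction without the block. Of all genes, 25.0% were lower and 9.94% higher with the block, and 12.7% and 11.7% with the GC-content offset and the block. With limma-voom and the block 20.5% were lower and 17.5% higher, and with limma on TPM without the block 0.629% and 0.25%. With single libraries left out, 0 to 7 proteasome genes were lower and 0 to 1 were lower past both thresholds. The highest of these counts came without knockdown replicate 1, where 19.8% of all genes were lower and 3.24% passed both thresholds. For the other pathway genes the lower calls were 13 with the block, 4 with the GC-content offset and the block, 7 with limma-voom and the block, 1 each with limma-voom, with a mean of at least 5 TPM and with protein-coding genes only, and 0 to 7 with single libraries left out. The higher calls were 3 with the GC-content offset and the block and 1 with limma-voom and the block. These counts are out of 24 genes, and the shares of all genes given above hold for the same fits. For the remaining fits such shares were not computed.

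The median log2 fold change of the proteasome genes was -0.04 with upper-quartile scaling, -0.02 with the GC-content offset with or without the block, -0.08 with the transcript-length offset, -0.04 with limma-voom with or without the block, and -0.24 to -0.05 with single libraries left out. With upper-quartile scaling the log2 ratio of summed TPM was -0.05 for the alpha ring, 0.09 for the beta ring, 0.04 for the ATPases, 0.01 for the non-ATPase genes, 0.01 for the activators, 0.07 for the inhibitor and -0.09 for the assembly chaperones. With single libraries left out it was -0.29 to -0.04, -0.06 to 0.04, -0.21 to 0.08, -0.19 to -0.01, -0.15 to -0.05, -0.06 to 0.02 and -0.26 to -0.12 in the same order.

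Over the 17 alternatives, 11 of the 19 named genes kept the sign of their log2 fold change. With upper-quartile scaling PSMA7 was at 0.026, PSMB5 at 0.1, PSMB7 at 0.081 and PSMF1 at 0.068. With the GC-content offset, with or without the block, PSMB5 was at 0.024, PSMB7 at 0.058, PSMC6 at 0.15, PSMD2 at -0.011, PSME3IP1 at 0.014 and PSMF1 at 0.12. With the transcript-length offset PSMB5 was at 0.0055 and PSMF1 at 0.13. With limma-voom PSMA7 was at 0.022, PSMB5 at 0.1, PSMB7 at 0.079 (0.078 with the block) and PSMF1 at 0.066. With single libraries left out PSMA7 lay from -0.19 to 0.026, PSMB5 from -0.051 to 0.053, PSMB7 from -0.076 to 0.056, PSMC4 from -0.026 to 0.16, PSMD2 from -0.1 to 0.15 and PSMF1 from -0.059 to 0.021. The cause of these changes was not tested.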
